A study of Sus scrofa domesticus with 150 samples.

Results

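A set of 8 genes of calprotectin and secreted antimicrobial proteins were followed in healing porcine skin wounds, found in the count table by their symbols: S100A8, S100A9, S100A12, LCN2, LTF, SLPI, PGLYRP1 and LYZ. Rows of the count table carried 7 of the 8 symbols, and SLPI was carried by 2 rows, so that 8 of the 30461 genes in the table were members. LYZ was not analysed here. The samples were bulk biopsies of skin or wound tissue from 6 female pigs (Sus scrofa domesticus, Yorkshire-mix breed) with full-thickness excisional wounds on the back, all of them covered with dressings. From the excised skin 6 samples were taken on day 0, 1 per animal. On days 1 to 7, 9, 11 and 13, 6 samples came from the wound edge and 6 from the wound center (3 animals with 2 wounds each). On days 15, 16, 19 and 21 there were 3 and 3 (3 animals with 1 wound each). These are 29 tissue states and 150 samples, and each of the 72 wounds gave 1 edge and 1 center sample and then left the experiment. Animals 1 to 3 were sampled on days 1, 3, 5, 7, 11, 15 and 21 and animals 4 to 6 on days 2, 4, 6, 9, 13, 16 and 19, so neighbouring days mostly hold different animals. The labelled wound letter also changed with the day. Wounds A and L were taken on days 1 and 2, F and G on days 3 and 4, and B and K on days 5 and 6. Wounds E and H were taken on days 7 and 9, C and J on days 11 and 13, D on days 15 and 16, and I on days 19 and 21. The age of the animals is not given in the sources used here.

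The total count per sample ranged from 13133379 to 24895572. Levels are given as CPM, which are counts scaled to a common library total and, on a log scale, as log2(1 + CPM). Calls come from edgeR's quasi-likelihood test fitted over all genes, with Benjamini-Hochberg adjustment over all genes tested and a threshold of 0.05. From earlier work on these data 7 libraries were known to stand apart from their replicates, among them replicate 4 of the day 3 center, replicate 6 of the day 3 edge and replicate 1 of the day 11 center. Results that rest on them are given with and without them. The labelled locations were compared with epidermal keratinocyte genes, taken as the mean log2(1 + CPM) of 13 genes. This list ranged from 9.73 to 10.48 in day 0 skin, with a median of 9.96 at the edge and 3.23 in the center. It was higher at the edge in 69 of 72 wounds. In the library labelled day 3 edge replicate 6 the list stood at 2.75, and in the libraries labelled day 3 center replicate 4 and day 11 center replicate 1 it stood at 9.62 and 9.37.

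Calprotectin is a complex of S100A8 and S100A9, small calcium-binding proteins that withhold zinc and manganese from microbes. S100A12 is a related zinc- and copper-binding S100 protein. All of them are abundant in the cytoplasm of neutrophils and are also made by keratinocytes of injured or inflamed epidermis. Lipocalin 2 (LCN2) captures bacterial siderophores, lactotransferrin (LTF) binds iron and is stored in neutrophil granules and secreted by glandular epithelia, secretory leukocyte peptidase inhibitor (SLPI) blocks neutrophil elastase, and PGLYRP1 binds bacterial peptidoglycan. Since leukocytes and epithelia can both make these proteins, the edge of a wound, where the epidermis lies, and its center, which starts without one, were compared in every wound. In bulk samples, more cells of a type and more RNA per cell cannot be told apart.

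The 3 S100 genes lie within 1 contig, LUXX01091667.1, with S100A9 (ENSSSCG00025058500) from 172539 to 175358 on the plus strand, S100A12 (ENSSSCG00025058600) from 184344 to 185789 on the minus strand and S100A8 (ENSSSCG00025058666) from 200880 to 201931 on the minus strand. LCN2 (ENSSSCG00025010763) is on contig LUXX01019479.1 from 12113 to 21839, LTF (ENSSSCG00025052654) on LUXX01073055.1 from 1655231 to 1687088 and PGLYRP1 (ENSSSCG00025017506) on LUXX01037279.1 from 922974 to 928161. The 2 rows for SLPI are on contig LUXX01101888.1. The row named SLPI (ENSSSCG00025059729) spans 2384731 to 2387510 on the minus strand. The other, an unnamed gene described by its match to an SLPI protein (ENSSSCG00025059582, 2367309 to 2370057 on the plus strand), is called the SLPI homolog here. Reads could be split between these similar genes by the authors' counting, which leaves the level of each uncertain. All 8 rows are annotated as protein coding, and the genome build of the contigs is not given in the sources used here.

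S100A8, S100A9 and S100A12 were low in day 0 skin and were called higher in every wound state, at the edge and in the center. S100A9 in day 0 skin was between 0.899 and 4.11 CPM in the 6 animals, with a median of 2.29 CPM. At the wound edge on day 1 its lowest, median and highest values were 307, 616 and 2262 CPM, and in the wound center 109, 191 and 276 CPM. All 6 edge samples of day 1 were above all 6 center samples. On day 9 the edge held 1152 to 3299 CPM (median 1896) and the center 67.4 to 176 CPM (median 119). On day 13 the edge reached its highest state of the series, 822 to 5829 CPM with a median of 2353, against 62.6 to 1473 CPM (median 150) in the center, where the groups overlapped. All comparisons with day 0 share the same 6 skin samples. Against day 0, S100A9 was higher by 8.71 ± 0.76 (log2, SE) at the day 1 edge (adjusted p = 6.33e-06) and by 10.29 ± 0.74 at the day 13 edge (adjusted p = 1.03e-06). By day 21 the edge values were 11.4, 18.1 and 10.2 CPM, 2.67 ± 0.43 above day 0 (adjusted p = 0.00151). With the animal as a block and day 0 of the same animals, the calls were lost for S100A8, S100A9 and S100A12 at the day 15 edge (adjusted p = 0.0991, 0.0568 and 0.111) and in the day 21 center (adjusted p = 0.184, 0.164 and 0.169). The same held for S100A12 in the day 16 center (adjusted p = 0.0568) and at the day 21 edge (adjusted p = 0.185). In the day 21 center the calls of S100A8 and S100A12 also rested on replicate 1, without which they were 1.60 (adjusted p = 0.0942) and 1.28 (adjusted p = 0.165). At the day 15 edge S100A12 was at 1.77 (adjusted p = 0.0727) without replicate 1. Its call at the day 21 edge was lost without any 1 of the 3 samples (adjusted p = 0.0598 to 0.106).

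**Figure D1:**
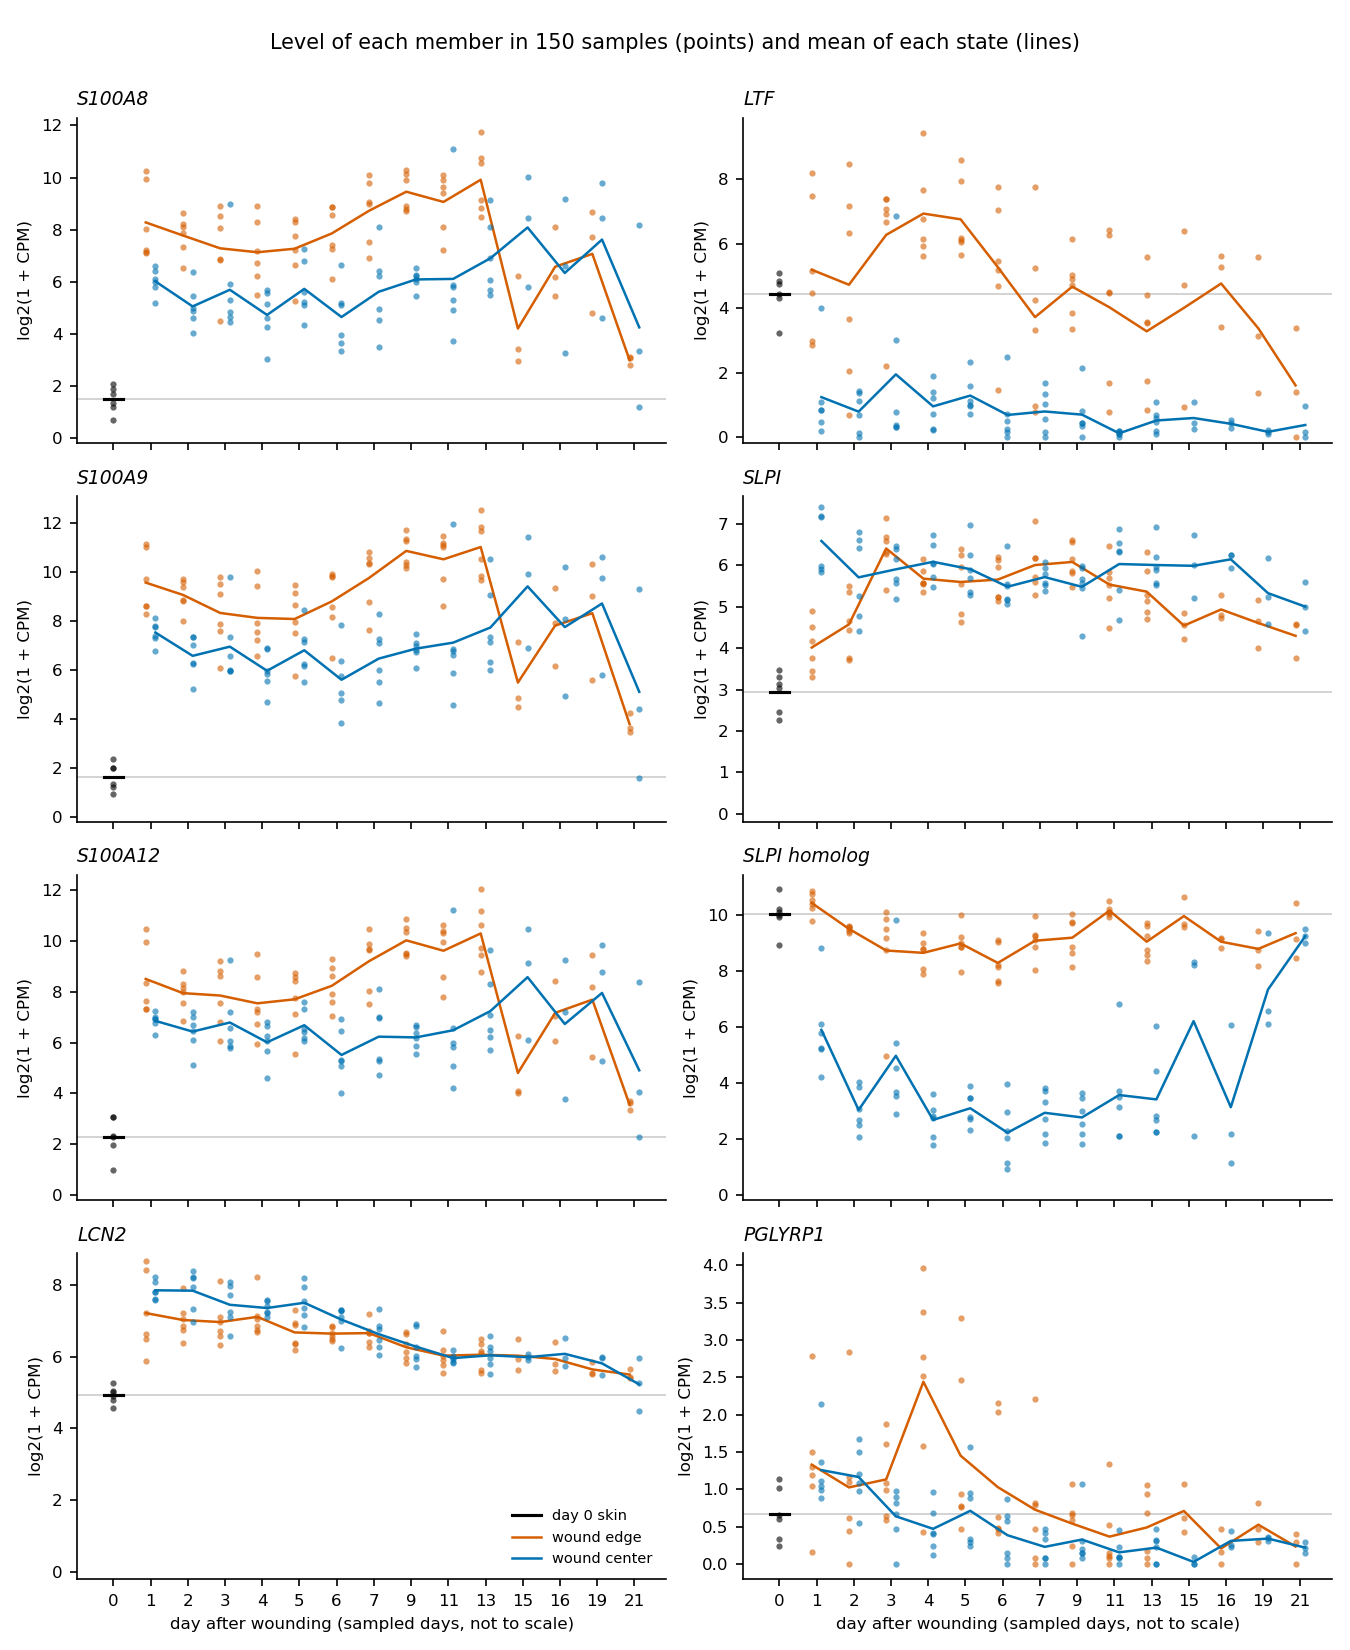
Level of each member as log2(1 + CPM) (vertical axis) by day after wounding (horizontal axis, sampled days not to scale), with a point for each of the 150 samples, a line through the mean of each state for wound edge (orange) and wound center (blue), and a gray line at the mean of day 0 skin (black). S100A8, S100A9 and S100A12 have their lowest mean in day 0 skin and their highest at the day 13 edge, whereas the center means of LTF lie below day 0 skin on all 14 days.

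The other 2 genes of the cluster had nearly the same profile. S100A8 ranged from 0.631 to 3.19 CPM in skin and from 5.94 to 3454 CPM at the edge (median 273). S100A12 ranged from 0.971 to 7.45 CPM in skin and from 9.29 to 4197 CPM at the edge (median 340). For each of the 3 genes, day 13 edge was the highest and day 0 skin the lowest of the 29 states. Day 13, day 9 and day 11 edge lay within 1 SD of the top for S100A9, as did day 7 edge in addition for S100A8 and S100A12. In the order of the 29 state means, 27 of the 28 neighbouring states were within their spread, the exception being day 0 skin, which stood below all others. Per length, on the FPKM scale, the ratio of S100A9 to S100A8 had a median of 1.69 over the 72 edge samples and 1.74 over the 72 center samples. The state means of S100A8 and S100A9 had a Pearson r of 0.99 over 29 states, as had S100A9 and S100A12, which is a description of genes measured in the same libraries.

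Within days, the members were called higher at the edge more often than in the center on most days to day 13. On day 1, 5 of 8 members tested were higher at the edge and 1 in the center, beside 46.6% of all genes called in either direction. On day 2 the counts were 5 and 2 of 8 (35.7% of all genes), on day 4 they were 6 and 0 of 8 (27.8%), and on day 5 they were 4 and 1 of 8 (37.1%). Of 7 members tested, 5 were higher at the edge and 0 in the center on each of days 6, 7, 9 and 13 (14.2%, 37.4%, 31.6% and 28.4% of all genes). On day 11, 2 of 7 were higher at the edge (43.4%). On day 15, 1 of 7 was higher in the center (17.4%), and on day 16, 1 was higher at the edge and 1 in the center (10.1%). By edgeR no member was called on days 3, 19 and 21, beside 0%, 0% and 0.0684% of all genes. Without adjustment 1666, 479 and 1269 genes were below 0.05 on these days, and DESeq2 called 1, 13 and 326. The count of day 3 rested on center replicate 4, without which 1315 genes were called, and 1216 were called in 1 fit of all 150 samples. Over all days, 43 of 103 tested pairs of a member and a day were higher at the edge and 6 in the center (47.6% called), beside 23.5% of all pairs of a gene and a day. S100A8, S100A9 and S100A12 gave 8, 7 and 8 of the edge calls. They moved nearly as 1 gene (r = 0.98 to 0.99 over 150 libraries), so these pairs are not independent.

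S100A8 and S100A12 were higher at the edge on 8 days each (1, 2, 4, 5, 6, 7, 9 and 13), with log2 fold changes from 1.56 to 3.55 and from 1.25 to 3.93. S100A9 was higher on the same days except day 5, from 2.49 to 4.11. On day 9 S100A9 was higher at the edge by 4.11 ± 0.36 (adjusted p = 2.85e-06), S100A12 by 3.93 ± 0.34 (adjusted p = 3.01e-06) and S100A8 by 3.55 ± 0.36 (adjusted p = 1.04e-05), in 6 of 6 wounds for each gene. S100A9 was higher at the edge in 55 of the 60 wounds of days 1 to 13. With the wound as a block, S100A9 was also called on day 5 (adjusted p = 0.0305, against a log2 fold change of 1.39 and 0.0782 without the block). The day 5 calls of S100A8 and S100A12 were lost without edge replicate 6, which stood apart (adjusted p = 0.0679 and 0.0753).

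On days 3 and 11 the call for calprotectin depended on 1 library each. On day 3, S100A9 was at 894 CPM in center replicate 4 and at 61.6 to 161 CPM in the other 5 center samples, and the edge ranged from 65.8 to 873 CPM. Its difference was 0.98 ± 0.81 (adjusted p = 0.598) with that library and 2.40 ± 0.61 (adjusted p = 0.0340) without it. On day 11, S100A9 was at 3993 CPM in center replicate 1 and at 22.9 to 115 CPM in the other 5 center samples, below all edge samples (393 to 2782 CPM). Its difference was 1.27 ± 1.15 (adjusted p = 0.393) with that library, 4.52 ± 0.56 (adjusted p = 3.69e-05) without it, and 4.25 ± 1.18 (adjusted p = 0.0204) with the wound as a block. S100A8 and S100A12 were likewise called on day 11 only without it (log2 4.16 and 4.25) or with the block (3.84 and 3.94, adjusted p = 0.0291 and 0.0243), against 0.72 and 1.12 with all libraries. Both libraries were the ones with the epidermal list at 9.62 and 9.37, whereas the other center samples of those days lay between 1.40 and 5.89 and between 2.37 and 3.58.

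**Figure D2:**
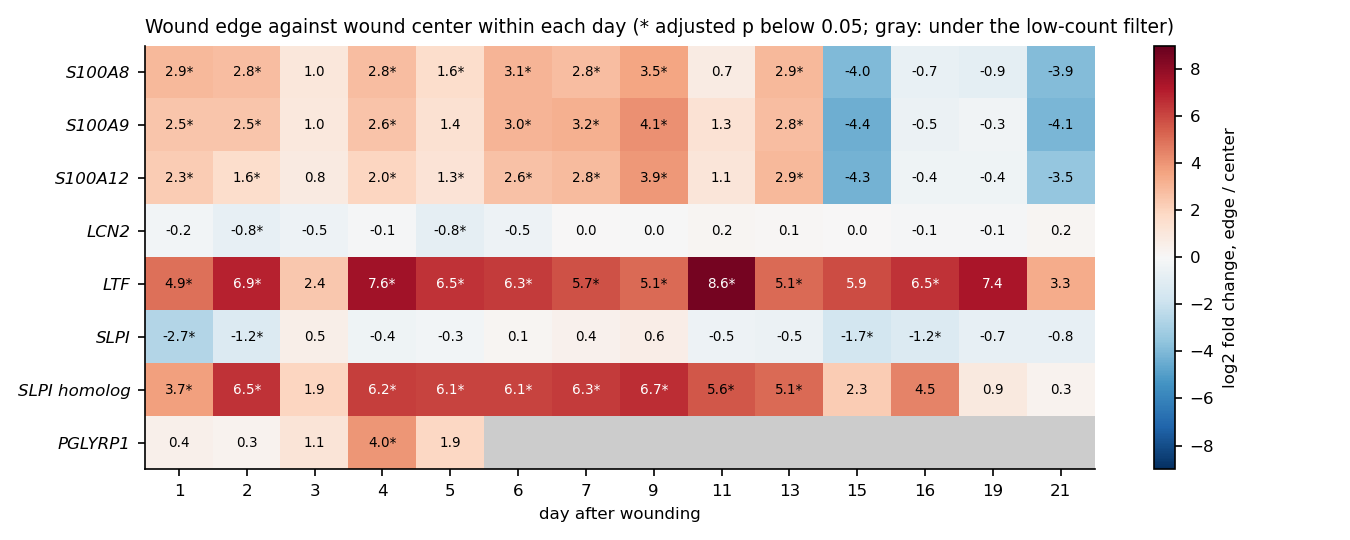
Log2 fold change of wound edge against wound center (color and printed value) for each member (rows) on each day (columns) from edgeR, with an asterisk where the adjusted p was below 0.05 and gray where the gene did not pass the filter on low counts. S100A8, S100A9 and S100A12 are above 0 on all 10 days to day 13 and below 0 on days 15, 16, 19 and 21 (on day 16 the mean differences within wounds are above 0), and LTF is above 0 on all 14 days.

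From day 15 S100A9 was no longer called higher at the edge, and on some days its center values were the higher ones. S100A9 on day 15 was at 139, 27.7 and 21.2 CPM at the edge of the 3 wounds and at 2748, 958 and 117 CPM in their centers, the center being higher in 3 of 3 wounds. On day 21 the edge held 11.4, 18.1 and 10.2 CPM and the center 635, 20.4 and 1.99 CPM, with only the first animal far apart. On day 16 the edge values were 648, 242 and 69.9 CPM and the center values 1179, 29.9 and 269 CPM, and on day 19 they were 1294, 523 and 46.4 CPM against 865, 1537 and 53.8 CPM. On day 16 the mean of the differences within wounds was above 0 for S100A8, S100A9 and S100A12 (0.24, 0.06 and 0.44 log2(1 + CPM)), whereas the fold changes of the groups were below 0. No single day passed the test. The log2 fold changes were -4.36 ± 1.37 (day 15, adjusted p = 0.0738), -0.51 (day 16, adjusted p = 0.823), -0.33 ± 1.22 (day 19, adjusted p = 0.998) and -4.11 ± 1.74 (day 21, adjusted p = 0.572). With the wound as a block, S100A8, S100A9 and S100A12 were called lower at the edge on day 15 (-4.06, -4.06 and -3.93, adjusted p = 0.0338, 0.0389 and 0.0449). S100A9 was higher at the edge in 3 of the 12 wounds of days 15 to 21.

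The change after day 13 was tested as a contrast chosen after seeing the data, the mean edge to center difference of days 15, 16, 19 and 21 minus that of days 9, 11 and 13. It was -5.06 ± 0.79 for S100A9 (adjusted p = 3.76e-06), -4.78 ± 0.81 for S100A8 (adjusted p = 1.16e-05) and -4.78 ± 0.72 for S100A12 (adjusted p = 2.49e-06). The difference fell by 3.78 ± 0.67 for the SLPI homolog (adjusted p = 2.04e-05) and by 0.96 ± 0.31 for SLPI (adjusted p = 0.0280). With library-size scaling SLPI was not called (-0.90, adjusted p = 0.0577). In contrast, LCN2 (-0.09 ± 0.24), LTF (-0.48 ± 1.34) and PGLYRP1 (0.01) were not called. The medians of PGLYRP1 at edge and center on these days were only 0.134 to 0.340 CPM. With values so near the floor, a change in PGLYRP1 could not be judged. In all, 5 of 8 members were called, beside 10.1% of all genes. Days 9 and 13 hold animals 4 to 6 and day 11 holds animals 1 to 3, whereas the 4 later days are shared evenly between the sets. The contrast thus gives the sets unlike weight on its 2 sides. Within the later days the 6 wounds of days 15 and 21 (animals 1 to 3) had a median S100A9 difference of -3.35 log2(1 + CPM), higher at the edge in 1 of 6. The 6 wounds of days 16 and 19 (animals 4 to 6) had one of -0.54, higher at the edge in 2 of 6. Day and animal set cannot be told apart. The later days also hold other wound letters than days 9 to 13, so time and wound letter cannot be told apart either.

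Markers of other cells also moved over these days. In the center the epidermal list had a median of 3.52 on days 9 to 13 and of 9.25 on days 15 to 21, while at the edge it was 9.89 and 9.68. The hair follicle list (8 of 9 symbols found) ranged at the edge from 0.0309 to 0.187 on day 13 and from 0.126 to 4.84 on day 11. It ranged from 0.370 to 7.57 on day 15, 2.19 to 3.25 on day 16, 0.0713 to 0.152 on day 19 and 4.12 to 6.59 on day 21, beside a median of 8.21 in day 0 skin. The neutrophil list at the edge had a median of 2.52 on days 9 to 13 and 2.20 on days 15 to 21. The part of these shifts in the change of calprotectin was not tested.

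**Figure D3:**
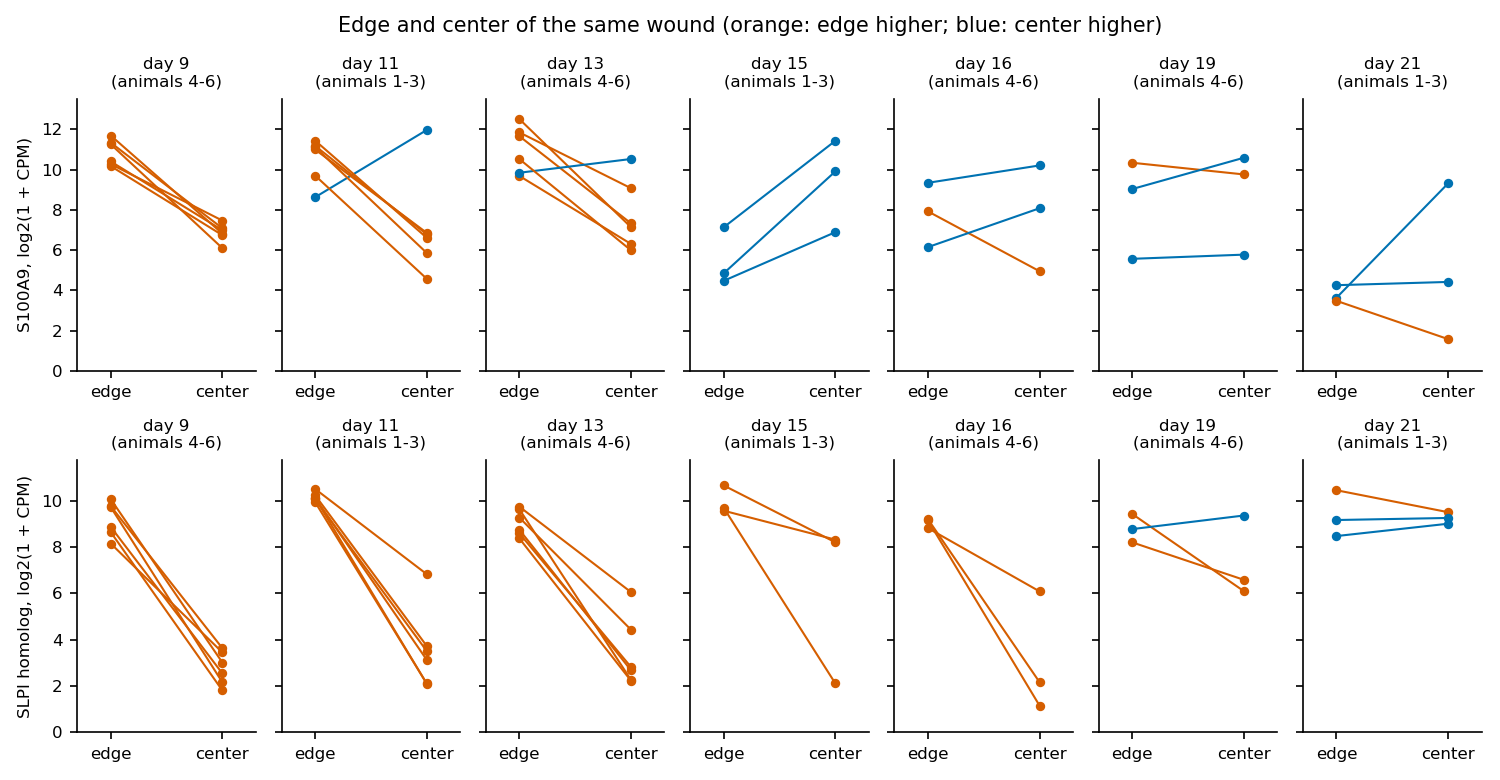
Level of S100A9 (upper row) and the SLPI homolog (lower row) as log2(1 + CPM) at the edge and in the center of each wound, with a line joining the 2 samples of a wound (orange where the edge was higher, blue where the center was higher) and a panel for each day from 9 to 21 with its set of animals. S100A9 was higher at the edge in 6 of 6 wounds on day 9 and in 0 of 3 on day 15.

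LTF, the iron-binding lactotransferrin, was called lower than day 0 in nearly all center states and higher at the edge than in the center on 10 of 14 days. In day 0 skin it was between 8.39 and 33.1 CPM (median 23.4). On day 4 it reached 48.5 to 700 CPM at the edge (median 89.5) and 0.170 to 2.70 CPM in the center (median 0.985), with no overlap between the locations. On day 11 the edge held 0.717 to 85.3 CPM and the center at most 0.137 CPM. The center samples of that day held only 0 to 3 counts each, so the size of its fold change (8.61) is uncertain. The log2 fold changes of the 10 called days were 4.94 to 8.61, and LTF was higher at the edge in 69 of 72 wounds. The day 16 call (adjusted p = 0.0159) was lost without center replicate 3, edge replicate 2 or edge replicate 3 (adjusted p = 0.0568 to 0.0779). On day 4 the difference was 7.57 ± 0.91 (adjusted p = 3.18e-05). On day 3 it was 2.45 ± 1.48 (adjusted p = 0.486), and 6.10 ± 1.19 (adjusted p = 0.0152) without center replicate 4, which held 117 CPM where the other center samples were at most 7.13 CPM. The spread between edge samples was wide: on day 2 they ranged from 0.599 to 353 CPM.

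Against day 0, LTF was called higher at the edge on days 3, 4 and 5 (log2 2.25, 3.05 and 2.65). It was lower in the center on 13 of 14 days, by 3.10 to 7.93, the exception being day 3. Without replicate 4 the day 3 center was also lower (-3.83, adjusted p = 0.00227). With the animal as a block the day 3 edge was no longer called (1.96, adjusted p = 0.144). Genes of skin glands and simple epithelia moved with LTF among the edge samples. This list had 6 of its 8 symbols in the table (75%), so it stands for an incomplete set. As deviations from the means of their states, LTF and the gland list had a Pearson r of 0.75 and a Spearman rho of 0.74 over the 72 edge samples. By permutation within states both were past the threshold (100000 draws, p = 1e-05 for both, the smallest possible, adjusted p = 7.11e-05 and 0.000107 over 64 relations). It was 0.73 without the 2 samples farthest from the median, 0.71 in animals 1 to 3 and 0.79 in animals 4 to 6. With the neutrophil list the same r was -0.09 (adjusted p = 0.718). The 72 samples come from 6 animals and are not fully independent, and these relations were chosen after seeing the data.

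The 2 SLPI rows differed in level and in where they were called higher. The row named SLPI, the elastase inhibitor, was low in skin (3.83 to 10.2 CPM, median 7.48). It was higher than day 0 in all 14 edge and all 14 center states, by 1.12 to 3.56 and by 2.40 to 3.74. With the animal as a block it was not called at the edge on day 1 (0.78, adjusted p = 0.13) and day 15 (1.35, adjusted p = 0.0519). On day 1 it was at 8.87 to 28.6 CPM at the edge (median 14.8) and 56.6 to 170 CPM in the center (median 103), where the center values were all the higher ones. It was called higher in the center on day 1 (-2.66 ± 0.39, adjusted p = 0.000312), day 2 (-1.24 ± 0.44, adjusted p = 0.0445), day 15 (-1.68 ± 0.38, adjusted p = 0.0357) and day 16 (-1.20 ± 0.16, adjusted p = 0.0204). On days 3, 6, 7 and 9 its log2 fold changes were above 0 (0.52, 0.15, 0.40 and 0.59) and not called. The day 2 call was lost with the wound as a block (-1.14, adjusted p = 0.179), which called day 13 instead (-0.56, adjusted p = 0.0243). On day 2 the edge minus center differences were -3.08 to -2.16 log2(1 + CPM) in wound A of the animals. In wound L they were -0.10 to 0.95, so the center excess of that day lay in wound A. The calls of days 15 and 16, with 3 samples each, were lost when any of 5 of the 6 libraries of the day was left out (adjusted p up to 0.108 and 0.0808).

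The SLPI homolog, in contrast, was already present in day 0 skin, at 485 to 1975 CPM (median 1069). At the day 2 edge it was at 663 to 788 CPM (median 741) and in the day 2 center at 3.24 to 15.6 CPM (median 6.36). On 11 of 14 days the lowest edge value exceeded the highest center value. Days 15 and 16, with 3 samples at each location, are among them. How many of all genes were without overlap is not given here. It was called higher at the edge on 9 days, by 3.72 to 6.66, with 6.66 ± 0.53 on day 9 (adjusted p = 1.62e-06). Against day 0 it was lower in the center on 11 days, by 1.88 to 7.83, and lower at the edge on 6 days, by 0.72 to 1.77. With the animal as a block the edge calls of day 2 and day 13 (adjusted p = 0.308 and 0.386) and the center calls of day 16 and day 19 (adjusted p = 0.0564 and 0.0669) were lost. The center was then called lower on day 3 (-5.44, adjusted p = 0.0170) and day 21 (-0.97, adjusted p = 0.0274). The day 19 center call was also lost without replicate 1 or replicate 2 (adjusted p = 0.152 and 0.123). Day 3 edge and center overlapped, with 30.5 CPM in edge replicate 6 and 898 CPM in center replicate 4. Without that center library the difference was 5.15 ± 0.86 (adjusted p = 0.0143) against 1.93 (adjusted p = 0.507) with it. By day 21 the center held 723, 608 and 512 CPM and the edge 1394, 572 and 353 CPM, overlapping each other and the skin. Per length, the median ratio of the homolog to SLPI was 333 in skin, 28.9 at the edge and 0.280 in the center.

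LCN2, the siderophore binder, showed only small differences between edge and center. It was at 22.7 to 37.7 CPM in skin (median 30.1), at 57.6 to 408 CPM at the day 1 edge and at 192 to 297 CPM in the day 1 center, where the groups overlapped. It was called higher in the center on day 2 (-0.77 ± 0.27, adjusted p = 0.0429) and day 5 (-0.83 ± 0.24, adjusted p = 0.0154), and its other 12 differences lay between -0.46 and 0.17. Against day 0 it was higher in all 14 edge states and in 13 of 14 center states. The rise was 2.83 ± 0.21 in the day 2 center (adjusted p = 1.72e-07) and 0.76 ± 0.14 at the day 21 edge (adjusted p = 0.00383). At day 21 the center samples were at 21.3 to 61.0 CPM, around the level of skin (0.57 ± 0.26, adjusted p = 0.105), and they were called without replicate 2 (0.88, adjusted p = 0.00960). The edge calls of day 15 and day 21 were lost with the animal as a block (adjusted p = 0.138 and 0.0800).

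PGLYRP1, the peptidoglycan recognition protein, was scarce, with a median of 0.544 CPM in skin, 0.567 CPM at the edge and 0.261 CPM in the center. It passed the filter on low counts on only 5 of the 14 days, so its other days are described and not tested. On day 4 it was at 0.353 to 14.6 CPM at the edge (median 5.27) and 0.0918 to 0.948 CPM in the center. The edge was higher in 6 of 6 wounds (3.96 ± 0.75, adjusted p = 0.00159). Against day 0 it was higher at the edge on day 4 (3.23 ± 0.70, adjusted p = 0.00213) and day 5 (2.04 ± 0.78, adjusted p = 0.0377). The day 5 call was lost with the animal as a block (adjusted p = 0.318).

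Against day 0, most members tested were called in most states, as were many genes. At the edge, 75 of 108 tested pairs of a member and a day were higher and 6 lower. The 3 S100 genes, LCN2 and SLPI were higher on all 14 days each. From 5 to 8 of the 7 or 8 members tested were called per day, beside 50.3%, 45.7%, 50.1%, 49.2%, 55.9%, 54.2% and 56.2% of all genes on days 1 to 7, 44.3%, 46.7% and 48.7% on days 9, 11 and 13, and 15.9%, 26.8%, 34.4% and 28.4% on days 15, 16, 19 and 21. In the center, 69 of 105 pairs were higher and 24 lower, the lower ones being LTF on 13 days and the SLPI homolog on 11. Here 5 to 7 members were called per day, beside 65.1%, 59.1%, 61%, 66.7%, 71.6%, 66.3% and 71.2% of all genes on days 1 to 7, 61.6%, 63.1% and 61.3% on days 9, 11 and 13, and 53.1%, 54.1%, 42.5% and 41.7% on days 15, 16, 19 and 21. With the animal as a block and day 0 of the same 3 animals only, 158 pairs were called against 174 without it, of which 156 were shared.

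**Figure D4:**
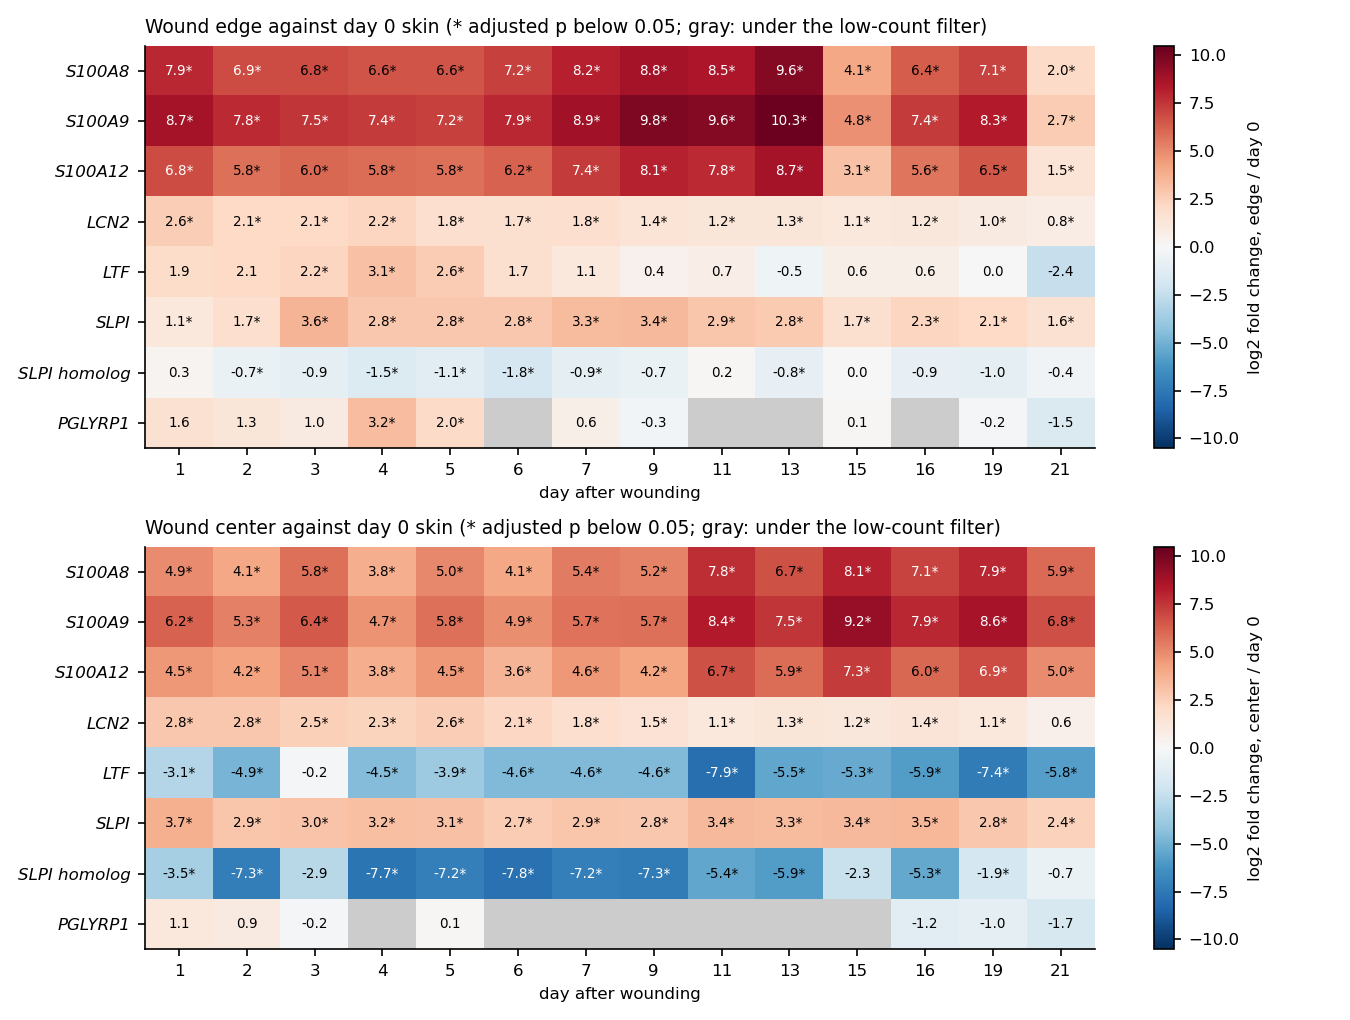
Log2 fold change of the wound edge (upper panel) and wound center (lower panel) against day 0 skin (color and printed value) for each member (rows) on each day (columns) from edgeR, with an asterisk where the adjusted p was below 0.05 and gray where the gene did not pass the filter on low counts. S100A8, S100A9, S100A12 and SLPI carry an asterisk in all 28 states, while LTF is called lower in 13 of 14 center states.

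Over animals, the edge to center difference was summarised as 1 value per animal, the mean over its 12 wounds of the log2(1 + CPM) at the edge minus that in the center. It was 1.97 ± 0.85 for S100A9 (SD, n = 6 animals), 1.95 ± 0.74 for S100A8, 1.66 ± 0.73 for S100A12, 4.00 ± 0.81 for LTF, 5.26 ± 0.53 for the SLPI homolog and 0.45 ± 0.25 for PGLYRP1, above 0 in 6 of 6 animals each. It was -0.27 ± 0.30 for LCN2 and -0.50 ± 0.21 for SLPI, below 0 in 6 of 6 animals each. The exact two-sided sign-flip permutation test gave p = 0.03125 for each of the 8 members, the smallest that 6 animals allow (adjusted p = 0.03125). The call was lost for LCN2 on the FPKM scale, with TMM scaling and without the libraries apart, for SLPI with medians over wounds, and for PGLYRP1 on the 10 days with 6 wounds (adjusted p = 0.0625 for each, by the same exact test). Within the sets of animals S100A9 stood at 1.46 (animals 1 to 3) and 2.49 (animals 4 to 6).

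Some members, though not S100A8, differed from S100A9 in this quantity. LTF exceeded S100A9 by 2.03 ± 0.44 and the SLPI homolog by 3.29 ± 0.73, in 6 of 6 animals each. S100A12 was below it by -0.31 ± 0.18, LCN2 by -2.25 ± 0.67 and SLPI by -2.48 ± 0.64, also in 6 of 6 animals each (exact sign-flip permutation test, p = 0.03125, adjusted p = 0.0365 over 7 members). With medians over wounds the difference of S100A12 was -0.38 (exact test, adjusted p = 0.0729). PGLYRP1 is not set against S100A9 here, since with most of its values below 1 CPM the pseudocount limits how large its difference can be. S100A8 differed from S100A9 by -0.02 ± 0.22 (exact p = 0.9375), with values from -0.30 to 0.26 across animals.

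Whether the edge to center difference moved between the first and the later days was tested as that of days 9, 11 and 13 minus that of days 1, 2 and 3. It was called for 3 of 8 members, beside 28.6% of all genes. These were the SLPI homolog with 1.71 ± 0.58 (adjusted p = 0.0181), SLPI with 0.98 ± 0.28 (adjusted p = 0.00394) and LCN2 with 0.56 ± 0.21 (adjusted p = 0.0380). The call of the SLPI homolog was lost without the libraries apart (1.15, adjusted p = 0.0624) and for days 9 and 11 against days 1 and 2 (0.98, adjusted p = 0.330). That of LCN2 was lost with library-size scaling (adjusted p = 0.0551), with no filter on low counts (adjusted p = 0.111) and for days 9 and 11 against days 1 and 2 (adjusted p = 0.0977). S100A8 (0.19 ± 0.68, and -0.69 for days 9 and 11 against days 1 and 2), S100A9 (0.73 ± 0.66), S100A12 (1.10 ± 0.61), LTF (1.48 ± 1.01) and PGLYRP1 (0.64 ± 0.68) were not called. With the wound as a block, S100A9 (1.94 ± 0.58, adjusted p = 0.00685) and S100A12 (2.21 ± 0.54, adjusted p = 0.000975) were called as well. In level, the median of S100A9 at the edge was 506 CPM over the 18 samples of days 1 to 3, 418 CPM over the 24 of days 4 to 7 and 2128 CPM over the 18 of days 9 to 13. In the center the same medians were 142, 67.4 and 114 CPM.

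Markers of the cells that can make these proteins were set beside the members. The epidermal list was higher at the edge in 105 of 182 tested pairs of a gene and a day and in the center in 0. It was led by KRT10 (11 days), DSC3 (9 days), DSG1 and PKP1 (8 days each), which encode a keratin of the upper epidermis and parts of desmosomes. The gland list was higher at the edge in 49 of 77 pairs and in the center in 0, led by KRT8 on 10 days, AQP5 and KRT7 on 9 and ELF5 on 8. The neutrophil list (11 of 14 symbols found) was higher at the edge in 4 of 133 pairs and in the center in 31. Its share called in either direction was 26.3%, near the 23.5% of all pairs of a gene and a day. Genes higher in the center included NCF4 (9 days), MMP25 (6 days) and CSF3R (5 days), which encode an oxidase subunit, a granule protease and the receptor of granulocyte colony-stimulating factor. The calls at the edge were of PADI4 and IL1R2 (ENSSSCG00025029612), on 2 days each, which are named here after their values were seen. The mean of the list was higher at the edge in 15 of 72 wounds. CSF3R had a median of 34.2 CPM at the edge and 98.7 CPM in the center, while MPO was at 0 in 16 of 72 edge and 34 of 72 center samples. The monocyte and macrophage list was higher in the center in 64 of 167 pairs and at the edge in 0, with CD14, CD163 and CSF1R on 8 days each and MSR1 on 7. The hair follicle list was higher at the edge in 25 of 35 pairs, with KRT27 and KRT71 on 7 of 8 days tested, KRT85 on 4 of 6 and TCHH on 3 of 3. Skeletal muscle genes were higher in the center in 14 of 38 pairs, with TTN on 7 of 14 days, CKM on 3 of 7, TNNC2 on 3 of 14 and MYH7 on 1 of 1. Erythrocyte genes were called in 0 of 41 pairs by edgeR. Called in either direction were 57.7% of pairs in the epidermal list and 63.6% in the gland list. The share was 38.3% for the monocyte and macrophage list, 71.4% for the hair follicle list and 36.8% for skeletal muscle genes, beside the same 23.5%.

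**Figure D5:**
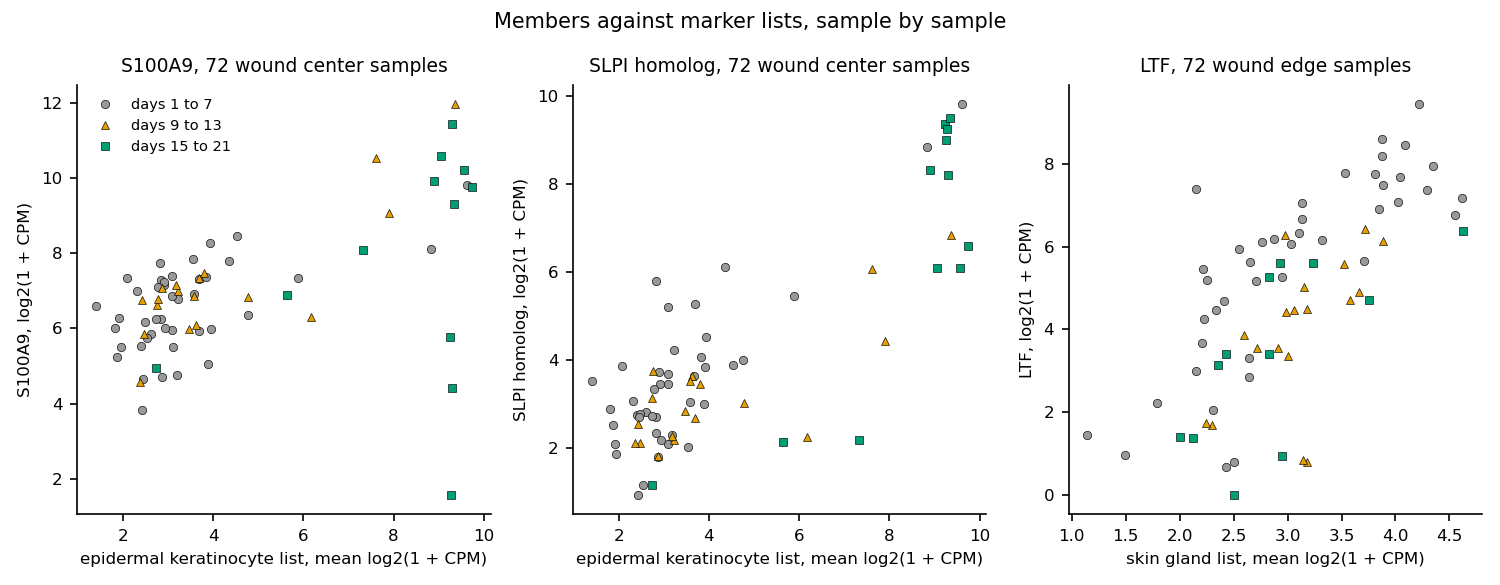
Level of S100A9 and of the SLPI homolog in the 72 center samples against the mean of the epidermal list, and of LTF in the 72 edge samples against the mean of the gland list, all as log2(1 + CPM) and before the means of the states were taken off, with a point for each sample and symbols for days 1 to 7, 9 to 13 and 15 to 21. The center samples of days 15 to 21 reach from 2.74 to 9.73 on the epidermal list, and S100A9 among them ranges from 1.99 to 2748 CPM.

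Among the center samples, the S100 genes were higher where genes of epidermis and of glands and simple epithelia were higher. As deviations from the means of their states, S100A9 and the epidermal list had a Pearson r of 0.65 and a Spearman rho of 0.63 over 72 center samples. The permutation within states gave low values for both (p = 1e-05, the smallest possible, adjusted p = 7.11e-05 and 0.000107). The r was 0.54 without the 2 farthest samples, 0.52 without the 5 center libraries that stand apart, 0.66 in animals 1 to 3 and 0.63 in animals 4 to 6. For S100A8 and S100A12 r was 0.65 and 0.66 and rho 0.60 and 0.62. With the gland list, which holds 6 of 8 symbols, r was 0.58 for each of the 3 genes and rho 0.51 to 0.56 (permutation adjusted p = 7.11e-05 to 0.000291 for r and 0.00032 to 0.00112 for rho). These r were 0.45 to 0.49 without the 2 farthest samples, 0.41 to 0.46 without the libraries apart, 0.64 to 0.66 in animals 1 to 3 and 0.38 to 0.48 in animals 4 to 6. The r of the 3 genes with the neutrophil list in the center lay between 0.13 and 0.23 and rho between 0.16 and 0.27, none past the threshold after adjustment. At the edge their r with the neutrophil list was 0.28 to 0.29 (adjusted p = 0.0669 to 0.0750), past the threshold by Spearman's rho (0.31 to 0.32, adjusted p = 0.0405 to 0.0408). With the epidermal list r was 0.24 to 0.35 (adjusted p = 0.0669 to 0.121, rho = 0.16 to 0.23, adjusted p = 0.166 to 0.386). SLPI at the edge went with the macrophage list (r = 0.45, rho = 0.50, permutation adjusted p = 0.00202 and 0.000524, 0.58 without the 2 farthest samples, 0.29 in animals 1 to 3 and 0.68 in animals 4 to 6). By rho only, SLPI went against the epidermal list at the edge (-0.31, permutation adjusted p = 0.0377). The same held for the neutrophil list in the center (-0.32, permutation adjusted p = 0.0347). LCN2 at the edge went against the epidermal list (r = -0.41, permutation adjusted p = 0.000256). PGLYRP1 in the center went with the neutrophil list (r = 0.44, rho = 0.39, permutation adjusted p = 0.0021 and 0.0128, 0.40 without the 2 farthest samples, 0.39 and 0.50 in the 2 sets of animals). Its center median was only 0.261 CPM. Also past the threshold was PGLYRP1 with the gland list at the edge (r = 0.38). So was the SLPI homolog with the epidermal list (0.84 in the center, 0.77 at the edge) and the gland list (0.80 and 0.35). Without the libraries apart these r were 0.77 and 0.45 for the epidermal list and 0.74 and 0.28 for the gland list. The edge r with the epidermal list was 0.88 in animals 1 to 3 and 0.29 in animals 4 to 6. At the edge the SLPI homolog went against the macrophage list (-0.32). LTF in the center went with the epidermal and gland lists (0.56 and 0.69, but 0.14 and -0.01 in animals 4 to 6).

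Other genes of the pathway were taken from lists. Of the other S100 genes, S100A14, S100A16 and S100A2 were higher at the edge on 8, 8 and 7 days (median log2 fold changes over 14 days of 3.13, 2.07 and 3.12). S100A1 was higher in the center on 3 days. The list as a whole was called at the edge in 28 and in the center in 6 of 126 pairs (27.0%, beside 23.5% of all genes). Of the other antimicrobial proteins (17 of 22 symbols found, 77.3%), PGLYRP3 was higher at the edge on 9 days and LPO, PGLYRP4 and DEFB1 on 8 each. Median log2 fold changes were 3.84 for PGLYRP3, 3.85 for PGLYRP4 and 3.12 for DEFB1. The list was called at the edge in 43 and in the center in 14 of 158 pairs (36.1%). The receptors and cofactors went the other way, with 0 pairs higher at the edge and 55 of 146 in the center (37.7%). SLC22A17, the lipocalin 2 receptor, was higher in the center on 9 days, CD14 and BSG on 8 and TLR2, which senses bacterial lipoproteins, on 7. Of inducing cytokines and transcription factors, CEBPA was higher at the edge on 6 days and in the center on 1, IL36A at the edge on 5, CEBPD in the center on 6 and IL1B in the center on 5. This list was called at the edge in 20 and in the center in 39 of 200 pairs (29.5%).

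The genes whose state means were most like each member, by Pearson r over the 29 states among 13511 genes with a mean of at least 1 CPM, were ADA for the 3 S100 genes (r = 0.94 with S100A8, 0.92 with S100A9 and 0.91 with S100A12). It was followed by DAPK2 and ATP1B3 for S100A8, GSDMD and DAPK2 for S100A9, and GSDMD and SMPDL3B for S100A12. They were CRISP3 (0.96), CYP4A6 and ABCC11 for LTF, C1ORF210 (0.98), ERBB3 and KRT23 for the SLPI homolog. They were HGH1 (0.96), COQ5 and PHB for LCN2, ADM (0.86), CARHSP1 and LAMB1 for SLPI, and CHRM1 (0.82), TMOD3 and USF3 for PGLYRP1. All states share the same libraries between genes, and these r are a description.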

How the data were processed

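Gene counts and FPKM values of 150 poly-A enriched, paired-end RNA-seq libraries were deposited by the authors. The deposited counts were raw reads per gene, made by the sequencing provider, and the deposited FPKM values were the same counts scaled by the authors by gene length and library. The aligner, counter and genome build are not given in the sources used here. Total counts were 13133379 to 24895572 per sample, so that 3 counts were 0.121 to 0.228 CPM.

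CPM used the total of all genes, with a pseudocount of 1 on the log2 scale. Tests used edgeR 4.0.16 (quasi-likelihood test, TMM factors, and genes kept by filterByExpr at 10 counts and a total of 15) in R 4.3.3, with DESeq2 1.42.0 as an alternative. Each comparison within a day, or of a state with day 0, was fitted on its own samples, and contrasts between days on all 150 samples. Animal means were tested by exact two-sided sign flips (64 patterns), and correlations by 100000 permutations within states, in Python 3.11.15 with numpy 2.4.6, pandas 2.3.3, scipy 1.17.1 and matplotlib 3.10.9. The procedure was tested on simulated data, with counts drawn separately for each library and no effect of wound or animal. This could not test how the calls hold with wounds and animals shared between samples. No pair of libraries held identical values (0 pairs). The main edgeR fits took each sample as separate and used neither the wound nor the animal. Their p-values measure the spread between samples of a state, and wounds of one animal are not independent animals. Of the edgeR fits, only those with the wound as a block used the pairing of edge and center.

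Edge and center samples of the same number came from 1 wound per the labels. Over 13704 genes their deviations from the state means correlated with a mean r of 0.275, above 0 in 64 of 72 wounds.

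The members and lists were chosen with earlier results of these data known. Named genes were the members, the 3 genes most like each by Pearson r over the 29 states (mean of at least 1 CPM), and of each other list up to 4 genes called on the most days. Of the genes that this rule names, 1 is not reported here. The contrast of days 15 to 21 with days 9 to 13, the single libraries left out on day 3 and the correlations with marker lists were chosen after seeing the data. Other alternatives were library-size scaling, no filter on low counts, blocks for wound or animal, summed wounds, 1 fit of all samples, and leaving out libraries.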

Additional observations from a re-analysis of the deposited data

Results flagged for a closer look

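In groups of 6 samples the highest or lowest value was compared with the other 5 by Dixon's test on the log2(1 + CPM) scale. It was tested in 168 groups and 18 values were far from the rest, where chance would give about 8.4, or about 1 group in 20.

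Of these values, 7 came from 2 center libraries that stand apart from their replicates. In day 3 center replicate 4, S100A8 was at 511 CPM, S100A9 at 894 CPM and the SLPI homolog at 898 CPM, against at most 60.0, 161 and 42.5 CPM in the other 5. In day 11 center replicate 1, S100A8 was at 2195 CPM, S100A9 at 3993 CPM, S100A12 at 2381 CPM and the SLPI homolog at 113 CPM, against at most 57.0, 115, 93.6 and 12.3 CPM. The epidermal list of these libraries was 9.62 and 9.37, and its part in these values was not tested. In day 3 edge replicate 6 the SLPI homolog was low, at 30.5 CPM against 434 to 1112 CPM.

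LTF was high in day 1 center replicate 5 (15.0 CPM, others at most 1.12), day 6 center replicate 3 (4.60 CPM, others at most 0.646) and day 9 center replicate 4 (3.43 CPM, others at most 0.740), and low in day 3 edge replicate 3 (3.62 CPM, others up to 168). LCN2 was high in day 4 edge replicate 4 (295 CPM, others 102 to 139) and low in day 6 center replicate 4 (74.4 CPM, others 126 to 157). SLPI was high in day 6 center replicate 3 (87.7 CPM, others 32.2 to 45.9) and low in day 9 center replicate 3 (18.7 CPM, others 42.7 to 62.5). PGLYRP1 was high in day 7 edge replicate 4 (3.61 CPM, others at most 0.762) and day 9 center replicate 4 (1.11 CPM, others at most 0.240).

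The edge to center difference changed between days by a test of the difference itself in 8 cases. Between days 1 to 3 and days 9 to 13 it rose by 0.56 for LCN2, 0.98 for SLPI and 1.71 for the SLPI homolog on the log2 scale. The LCN2 call was lost with library-size scaling, with no filter and with other days, and that of the SLPI homolog without the libraries apart (1.15) and with other days (0.98). Between days 9 to 13 and days 15 to 21 it changed by -4.78 for S100A8, -5.06 for S100A9, -4.78 for S100A12, -0.96 for SLPI and -3.78 for the SLPI homolog, the SLPI call being lost with library-size scaling (-0.90).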

How the results depend on the processing

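Of 332 alternative fits of edge to center calls of members, 309 kept direction and call and 23 lost the call. Most losses came from leaving out single libraries, where 5 of 18 kept the call and 13 lost it. These 18 fits were of the calls of LTF on day 16 and of SLPI on days 15 and 16. The calls of earlier days were not put through this step, so the total does not show how they would hold. Against day 0, 1133 of 1174 kept both and 41 lost the call. The 43 pairs of a member and a day called higher at the edge and 6 in the center became 46 and 9 with DESeq2, 43 and 5 with library-size scaling, 43 and 8 in 1 fit of all 150 samples, 49 and 7 without libraries apart from their replicates, and 47 and 9 with the wound as a replicate block, which shared 48 calls with the design without it. Leaving out singly the libraries of days 15 to 21, or 1 of 2 libraries of day 3, gave 42 to 47 and 5 to 6. Against day 0, with libraries of days 15 to 21 only, it gave 142 to 145 higher and 29 to 32 lower. For the change between days 1 to 3 and 9 to 13, S100A9 (1.94) and S100A12 (2.21) were called with the wound as a replicate block, and S100A12 (1.81) without libraries apart. LCN2 lost its call with library-size scaling (0.55), no filter (0.48) and days 9 and 11 against 1 and 2 (0.57), where S100A8 turned to -0.69 and the SLPI homolog was at 0.98, also uncalled without libraries apart (1.15). For days 15 to 21, SLPI lost its call with library-size scaling (-0.90). Per animal, LCN2 missed the threshold with FPKM (-0.25), TMM (-0.25) and without libraries apart (-0.27), SLPI with medians over wounds (-0.35), PGLYRP1 on the 10 days with 6 wounds (0.50), and S100A12 against S100A9 with medians (-0.38). The causes were not tested. Depth limits PGLYRP1, tested within 5 of 14 days, and LTF in the center.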
